A study of Arabidopsis thaliana with 9 samples.

Results

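The 4 ferritin genes (FER1 to FER4) and the 6 genes of the vacuolar iron transporter family (VIT1 and the VIT-like genes VTL1 to VTL5) of Arabidopsis thaliana were examined in shoots of plants kept on iron, deprived of it or given it back. They were chosen by locus, as the members of both iron storage families, and each locus was represented by 1 transcript, so that 10 of the 55442 transcripts in the tables belonged to them. All 9 samples were shoots of wild type Col-0 plants, 3 biological replicates per condition, and every plant was first grown for 14 days on MS medium with iron. The +Fe plants were then moved to fresh medium with iron for 3 days and again for 24 h. The -Fe plants had iron-free medium for both periods. In the Fe resupply plants iron was left out for the 3 days and returned for the last 24 h.

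Ferritins are hollow shells of many subunits that oxidise iron and hold it as a mineral core. In plants they sit mainly in plastids, where they keep free iron from feeding oxidative chemistry. The VIT family moves iron across the vacuolar membrane, the other large store of a plant cell, and its members are related to the vacuolar iron importer Ccc1 of the yeast Saccharomyces cerevisiae. FER1, FER3 and FER4 are the ferritins of leaves, FER2 is the ferritin of seeds, and VIT1 loads iron into vacuoles of the developing embryo. In Arabidopsis the basic helix-loop-helix proteins ILR3 and PYE are known to repress ferritin genes through a G-box, and the IDRS (iron-dependent regulatory sequence) of FER1 is known from promoter studies as an element needed for its low expression when iron is scarce.

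The short sequences ahead of the start codons are shown first because the ferritin genes are known to be controlled there. The 500 bases before the start codon of each gene were read from the RefSeq release TAIR10.1 and searched on both strands for CACGAGNCCNCCAC (IDRS), CACGTG (G-box) and GNATATNC (P1BS, the element bound by the phosphate regulators PHR1 and PHL1). The IDRS letters were found in 1 of 27443 such windows, that of FER1. Because the IDRS is an element known from FER1, a match there was given in advance. How many matches to these letters random sequence would hold was not counted. In the lines that follow, letters run 5′ to 3′ on the strand of the gene and capitals mark the match.
FER1 IDRS: ggatgtagCACGAGGCCGCCACacgcccct
FER1 P1BS: taacgtggatcGAATATCCtcacgttcaca
FER1 G-box: atatccaccctcCACGTGgatctcaatcca
FER2 G-box: ttctcctctttcCACGTGtccaacaaacag
FER3 G-box: atcgtatccatcCACGTGtcaacaatccac
FER4 G-box: atctcgtacgtaCACGTGtctctcatccgc

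All 4 ferritin genes carried a G-box and none of the 6 vacuolar transporter genes did, against 9.34% of all windows. The first base of the G-box lay 143 bases before the start codon in FER1, 143 in FER2, 127 in FER3 and 149 in FER4. In FER1 and FER2 the match fell within the transcribed leader (chr5:229732-229737 and chr3:3463508-3463513), and in FER3 and FER4 it lay 76 and 69 bases ahead of the transcript start (chr3:20816106-20816111 and chr2:16833358-16833363). The IDRS of FER1 began 190 bases before the start codon, also in the leader (chr5:229771-229784). P1BS was found in FER1 alone among the 10 genes, 227 bases before the start codon, and in 9.19% of all windows. A match is a run of letters and does not show that a protein binds there.

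**Figure D1:**
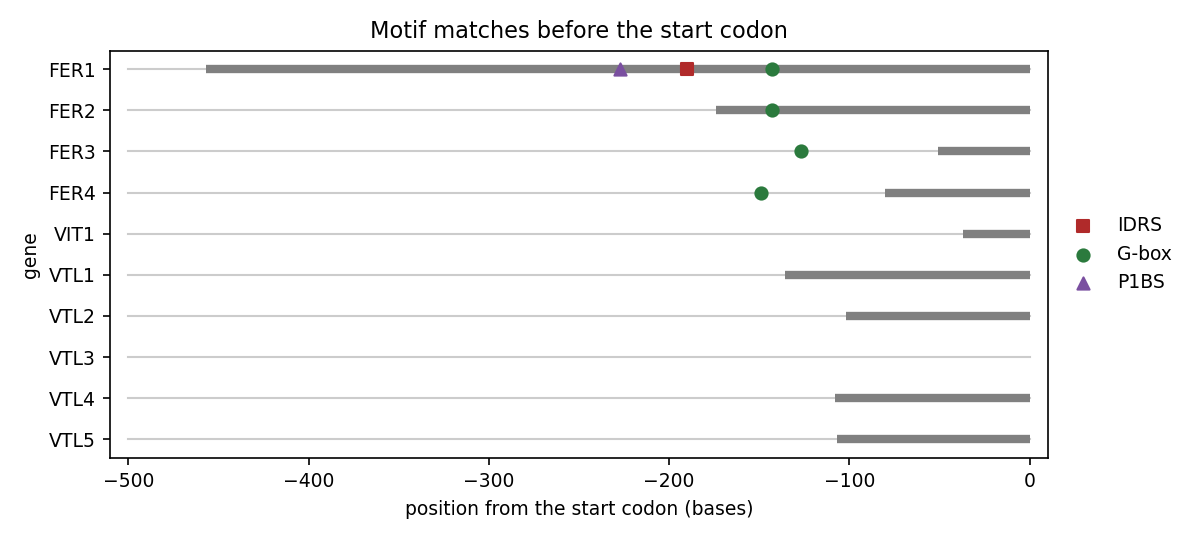
Positions of the IDRS (square), G-box (circles) and P1BS (triangle) matches in bases from the start codon for each of the 10 genes. Thick bars are the transcribed leader in the RefSeq gene model and thin lines the rest of the 500 bases. The 4 ferritin genes have their G-box 127 to 149 bases before the start codon and the VIT1 and VTL genes have no match.

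FER3 and FER4 are the closest pair among the ferritins, with 79.3% identity of their coding sequences against 68.7 to 72.1% for the other pairs. Their upstream sequences are shown because the G-box stands next to another run that they share. The 100 bases before the transcript starts (chr3:20816036-20816135 and chr2:16833295-16833394, both minus strand) held the G-box, in capitals, and a common run of 13 bases, cagcctcatcatc, behind it.
FER3 upstream: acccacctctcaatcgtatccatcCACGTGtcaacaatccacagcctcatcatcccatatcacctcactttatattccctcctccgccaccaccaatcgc
FER4 upstream: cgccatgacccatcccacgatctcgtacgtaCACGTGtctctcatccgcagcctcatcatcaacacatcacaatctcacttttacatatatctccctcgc

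VTL1 and VTL2, both of them detected in shoots, shared a longer run of 15 bases (in capitals) in the 100 bases before their transcript starts, 76 bases ahead of the start in VTL1 (chr1:7404228-7404327, plus strand) and 53 bases ahead in VTL2 (chr1:28829143-28829242, plus strand).
VTL1 upstream: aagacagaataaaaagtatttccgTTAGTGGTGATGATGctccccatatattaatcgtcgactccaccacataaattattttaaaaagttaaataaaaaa
VTL2 upstream: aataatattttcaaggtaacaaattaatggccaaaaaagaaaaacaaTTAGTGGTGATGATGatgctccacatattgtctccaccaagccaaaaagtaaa
VTL3 and VTL4, which were listed at 0, shared 14 bases in the same window. VTL5, which was detected, shared 9 bases with VTL1 and 10 with VTL2. How often runs of these lengths are shared by other genes was not counted. The gene model of VTL3 has a leader of 0 bases, so its window ends at the start codon.

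Expression was read as a mean level per condition in CPM, which scales a transcript's counts to a common library size. The deposited tables give the average log2 CPM over each pair of conditions and no value per sample. The 3 pair averages were therefore solved for the 3 condition means. The tables also hold the authors' own fold changes and p-values for each pair, which were left unused by choice. The averages alone give no spread between replicates and no interval, and whether any difference exceeds the replicate error was not tested here. A difference was counted when it reached 2-fold with 1 CPM added to both levels, for transcripts with a mean level of at least 1 CPM over the 3 conditions, and was read against the share of all 24535 such transcripts that did the same. A bulk level does not separate fewer cells of a type from less RNA per cell. CPM is not per length, so a higher CPM in one gene than in another does not by itself mean more transcript molecules.

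Of the 10 genes, 6 were detected (FER1, FER3, FER4, VTL1, VTL2 and VTL5), and each of them had its lowest level in -Fe, an intermediate level in +Fe and its highest level in Fe resupply. This order was held by 15.0% of all transcripts of at least 1 CPM. In VTL2 the +Fe and Fe resupply levels were nearly equal, at 9.29 and 9.64 CPM, so the rank of these conditions is uncertain for VTL2. FER2, VIT1, VTL3 and VTL4 were listed at 0 in all 3 tables. All 6 detected genes were above 1 CPM in every condition, so none entered the count through a single condition. The lowest levels were those of VTL1 and VTL5 in -Fe, at 1.14 and 1.35 CPM, so folds of these genes rest on few counts. If the lowest value of a table is a prior count of 2, 1 CPM stands for only 1.12 to 1.14 counts per library.

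FER1 (AT5G01600, chr5:227953-230051, minus strand, 8 exons, 255 residues), the ferritin gene most used as a marker of leaf iron status, had a mean level of 106 CPM under +Fe, 12.8 CPM under -Fe and 156 CPM after Fe resupply. Its -Fe level was 8.30-fold below +Fe and 12.2-fold below Fe resupply (log2 ratios with 1 CPM added, -2.96 and -3.51). Among the 1723 transcripts with a mean level at least that of FER1, 4 had a lower ratio of -Fe to +Fe and 3 a lower ratio of -Fe to Fe resupply. After 24 h of resupply FER1 stood at 1.47 times its +Fe level, short of 2-fold.

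FER4 (AT2G40300, chr2:16831109-16833294, minus strand, 8 exons, 259 residues), whose protein has been found in mitochondria as well as plastids, had 16.5 CPM under +Fe, 2.31 CPM under -Fe and 19.3 CPM after Fe resupply. The -Fe level was 7.15-fold below +Fe and 8.38-fold below Fe resupply, and the resupplied level was 1.17 times that of +Fe. These folds depend on the subtraction of each table's lowest value, without which FER4 had 18.3 CPM in +Fe and 4.10 CPM in -Fe.

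FER3 (AT3G56090, chr3:20813904-20816035, minus strand, 8 exons, 259 residues), a plastid ferritin, had 24.7 CPM under +Fe, 8.78 CPM under -Fe and 43.4 CPM after Fe resupply. It differed least among the detected ferritins between -Fe and +Fe, at 2.81-fold, and most between Fe resupply and +Fe, at 1.76-fold. Against Fe resupply its -Fe level was 4.94-fold lower. FER3 and FER4 thus had unlike ratios although they are the closest pair in sequence.

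VTL1 (AT1G21140, chr1:7404328-7405426, plus strand, 1 exon, 200 residues), a VIT-like protein that can move iron into the vacuole of yeast, had 5.22 CPM under +Fe, 1.14 CPM under -Fe and 7.16 CPM after Fe resupply. The -Fe level was 4.57-fold below +Fe and 6.28-fold below Fe resupply. Without the subtraction of each table's lowest value VTL1 had 6.98 CPM in +Fe and 2.93 CPM in -Fe. VTL1 is 88.7% identical to VTL3 and 87.8% identical to VTL4 in coding sequence, so the assignment of reads among these 3 genes is uncertain.

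VTL2 (AT1G76800, chr1:28829243-28830278, plus strand, 1 exon, 196 residues) had 9.29 CPM under +Fe, 3.80 CPM under -Fe and 9.64 CPM after Fe resupply. Its -Fe level was 2.45-fold and 2.54-fold lower, and of the 6 detected genes it had the resupplied level nearest to +Fe, at 1.04 times. VTL5 (AT3G25190, chr3:9174398-9175866, plus strand, 2 exons, 219 residues) had 2.74 CPM under +Fe, 1.35 CPM under -Fe and 4.04 CPM after Fe resupply. VTL5 was 2.02-fold lower in -Fe than in +Fe as a plain ratio, but with 1 CPM added its log2 ratio of -0.67 fell short of the threshold, and against Fe resupply it was -1.10. Without the subtraction its levels were 4.50 CPM in +Fe and 3.15 CPM in -Fe.

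**Figure D2:**
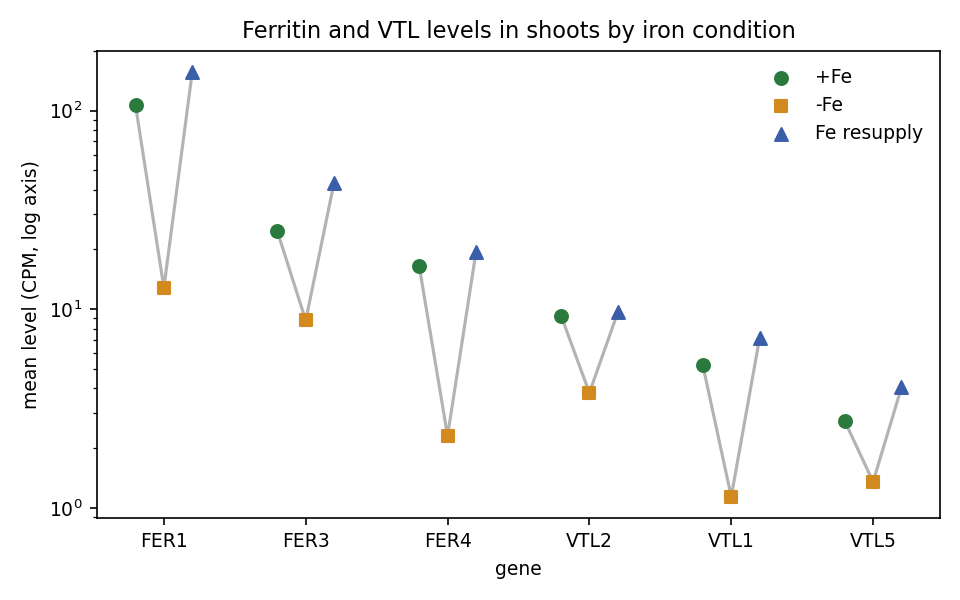
Mean level in CPM, on a log axis, of the 6 detected genes in +Fe (circles), -Fe (squares) and Fe resupply (triangles), each point solved from the averages of the deposited tables, with no error bar because the averages used hold no values per sample. Every gene is lowest in -Fe and highest in Fe resupply, with FER1 at 106, 12.8 and 156 CPM. For VTL2 the resupplied level is only 1.04 times that of +Fe.

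The genes listed at 0 give no fold. FER2 (AT3G11050, chr3:3463477-3465506, plus strand) is the seed ferritin, and the seed markers CRU3, OLEO1 and SESA3 were also listed at 0. VIT1 (AT2G01770, chr2:334663-336462, minus strand), VTL3 (AT3G43630, chr3:15538816-15539418, plus strand) and VTL4 (AT3G43660, chr3:15565224-15566047, plus strand) were at the lowest value of each table. VTL3 and VTL4 are 89.9% identical in coding sequence.

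Iron deficiency was compared with sufficiency to ask which genes differ after iron is withheld. Of the 6 detected members, 5 were lower by at least 2-fold in -Fe than in +Fe and 0 were higher, against 8.44% lower and 7.52% higher among all transcripts. Their median log2 ratio was -1.47 (range -2.96 to -0.67), where that of all transcripts was 0.00. The background share depends on level, at 13.4% lower for transcripts of 1 to 10 CPM and 3.44% for those of 10 CPM or more. With levels summed over the transcripts of a gene, 3.23% of 18003 genes were lower and 2.46% higher, an alternative chosen after seeing the data.

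The -Fe and Fe resupply plants shared their first 3 days without iron and differed in the last 24 h. All 6 detected members were lower by at least 2-fold in -Fe than in Fe resupply and 0 were higher, where 7.63% of all transcripts were lower and 9.25% higher. The median log2 ratio was -2.06 (range -3.51 to -1.10), and that of all transcripts was 0.06. Both comparisons use the same -Fe samples, so their counts are not separate evidence. With 5 CPM added to both levels in place of 1, FER1, FER3 and FER4 passed 2-fold in both comparisons and no VTL gene did. VTL5, with at most 4.04 CPM in any condition, could not reach 2-fold at this setting whatever its -Fe level. The share of all transcripts past 2-fold at this setting was not counted, so it does not separate ferritins from VTL genes apart from their levels.

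The comparison of Fe resupply with +Fe asks what still differs after 24 h on iron. None of the 6 detected members reached 2-fold in either direction, where 8.66% of all transcripts were lower and 6.8% higher. Their log2 ratios were all above 0, with a median of 0.41 (range 0.05 to 0.79), against -0.06 for all transcripts.

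**Figure D3:**
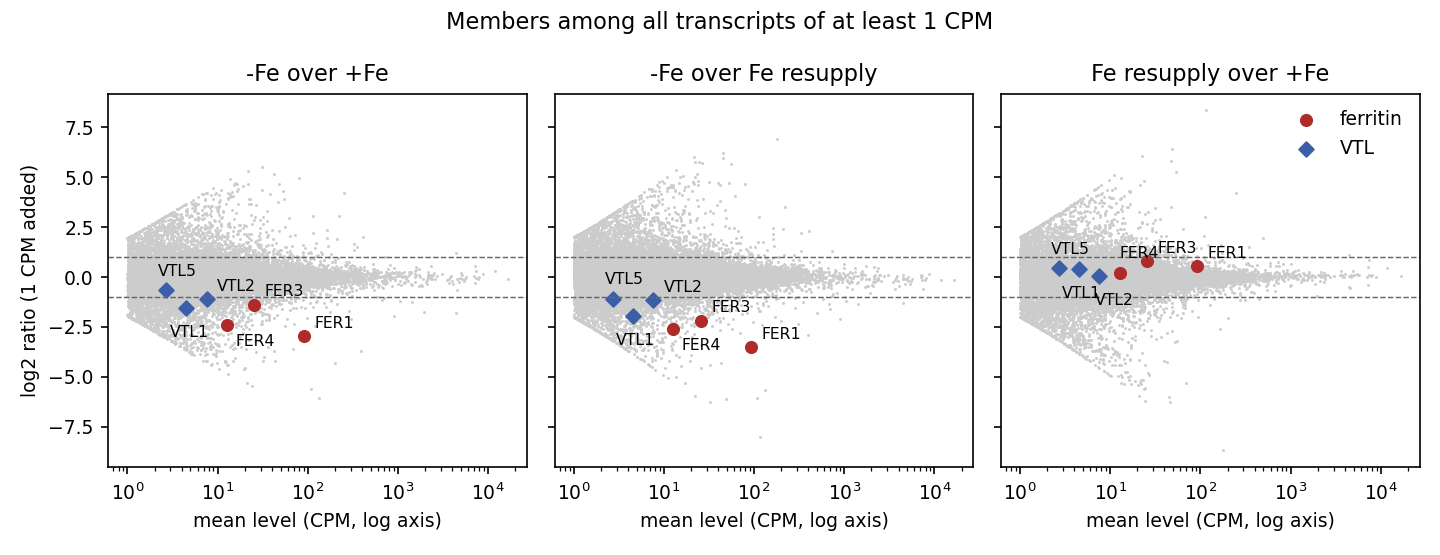
The log2 ratio (1 CPM added) against the mean level (CPM, log axis) of all 24535 transcripts of at least 1 CPM (grey) for the 3 comparisons, with detected ferritins as circles, VTL genes as diamonds and dashed lines at 2-fold. FER1, at -2.96 and -3.51, lies below nearly all transcripts of its level in the panels of -Fe, and all 6 members lie between the dashed lines for Fe resupply over +Fe.

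The remaining lists were read by gene, with levels summed over the transcripts of each gene. Of all 18003 genes of at least 1 CPM, 3.23% were lower and 2.46% higher by 2-fold in -Fe than in +Fe. In -Fe against Fe resupply 2.46% were lower and 3.54% higher, and in Fe resupply against +Fe 2.78% were lower and 1.26% higher. With such shares, a count of 0 in a short list is not a result about its genes. Of 6 other genes of vacuolar and cellular metal transport, 4 reached 1 CPM, 0 were lower by 2-fold in -Fe than in +Fe or Fe resupply and 2 were higher than in each. NRAMP4, which exports iron from the vacuole, had summed levels of 44.4 CPM under +Fe, 112 CPM under -Fe and 33.4 CPM after Fe resupply. ZIF1, which loads the chelator nicotianamine into the vacuole, had 78.8, 259 and 76.0 CPM in the same order. NRAMP3, the partner exporter of NRAMP4, had 16.9, 11.6 and 11.0 CPM, and FPN1, an iron exporter of the vasculature, had 14.6, 10.5 and 12.0 CPM, both short of 2-fold. FPN2 and MTP8 were listed at 0. The VIT family relatives of the endoplasmic reticulum body were low, with MEB1 at 0.911, 4.42 and 3.07 CPM and MEB2 below 1 CPM on average. MEB1 was nevertheless past 2-fold above +Fe, with log2 ratios of 1.51 for -Fe and 1.09 for Fe resupply. Its mean level of 2.80 CPM was near that of VTL5, at 2.71 CPM, whose -Fe level was below +Fe.

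Among 7 genes known as regulators of ferritins or of iron deficiency responses, 6 reached 1 CPM as summed levels and, by that measure, only PYE passed 2-fold. Single transcripts of TIC and URI also did: TIC transcript AT3G22380.3 had 43.3, 101 and 182 CPM in the order +Fe, -Fe and Fe resupply, AT3G22380.2 had 0.178, 11.2 and 18.0 CPM, and URI transcript AT3G19860.2 had 8.44, 3.63 and 6.09 CPM. PYE, the repressor that pairs with ILR3, had 7.79 CPM under +Fe, 23.8 CPM under -Fe and 5.62 CPM after Fe resupply. ILR3 itself had 115, 113 and 120 CPM. URI, an activator of iron deficiency genes, had 61.1, 51.1 and 68.5 CPM, and TIC, a clock protein linked to ferritin repression, had 388, 410 and 386 CPM. PHR1 had 41.0, 40.0 and 41.2 CPM and PHL1 had 5.42, 8.43 and 5.66 CPM. BHLH11 stayed below 1 CPM in every condition. The summed levels of ILR3, URI and PHR1 followed the same order as the detected storage genes, lowest in -Fe and highest in Fe resupply, with differences short of 2-fold. In ILR3 and PHR1 the conditions were nearly equal, with log2 ratios to +Fe of -0.03 in -Fe for both. In Fe resupply these ratios were 0.07 for ILR3 and 0.01 for PHR1. Tables holding the same condition differed by up to 3.40%, so the order is not resolved for ILR3 and PHR1.

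Of 7 genes of iron transport or reduction in plastids and mitochondria, 0 were lower by 2-fold in -Fe than in +Fe and 1 was higher. In -Fe against Fe resupply 1 was lower and 1 higher, all as summed levels. The direction in which each transporter moves iron was not examined. FRO3, a mitochondrial ferric reductase, had 56.9 CPM under +Fe, 240 CPM under -Fe and 62.8 CPM after Fe resupply. YSL4, a chloroplast transporter of metal chelates, had 4.69, 1.98 and 5.09 CPM, the same order as the storage genes, and its log2 ratios were -0.93 to +Fe and -1.03 to Fe resupply, the latter past 2-fold. PIC1, FRO7, YSL6, MIT1 and MIT2 differed by less than 2-fold in each comparison as summed levels. A single transcript of FRO7, AT5G49740.2, did pass it, with log2 ratios of 2.21 for -Fe over +Fe and 1.41 for Fe resupply over +Fe.

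**Figure D4:**
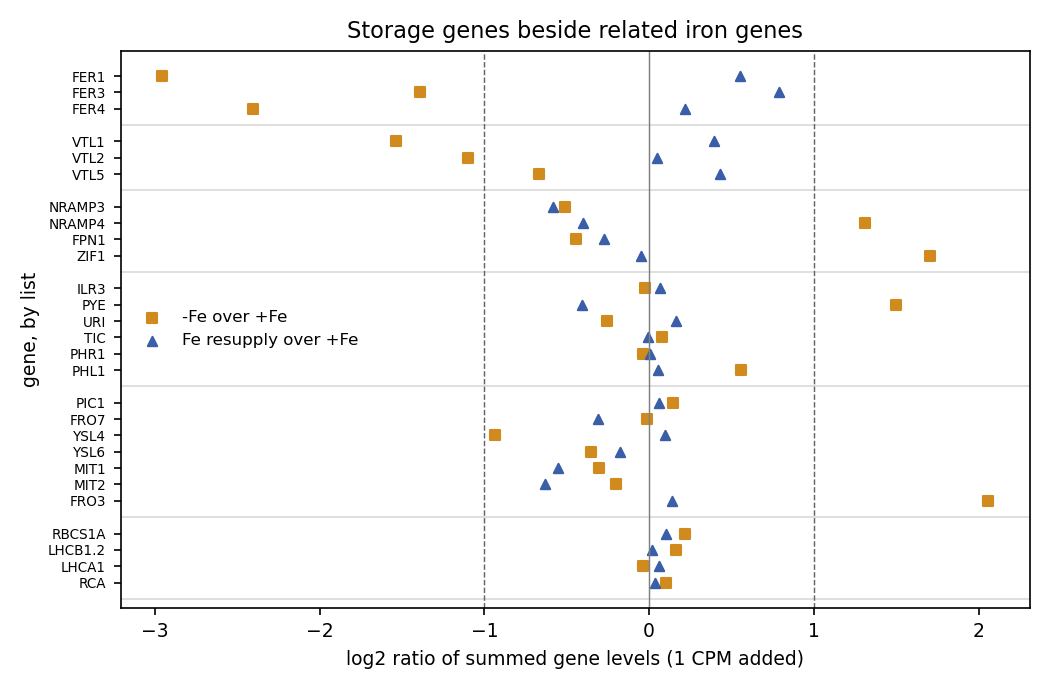
The log2 ratio of summed gene levels (1 CPM added) for -Fe over +Fe (squares) and Fe resupply over +Fe (triangles), grouped from top to bottom as ferritins, VTL genes, vacuolar metal transport, regulators, organelle iron transport or reduction and green leaf markers, with dashed lines at 2-fold. The squares of 5 storage genes lie below the lower line, while NRAMP4, ZIF1, PYE and FRO3 lie above the upper one. The endoplasmic reticulum body relatives MEB1 and MEB2 are not drawn.

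The tissue label was checked with markers. The 4 green leaf markers RBCS1A, LHCB1.2, LHCA1 and RCA had 7688 to 12482 CPM as summed levels and, by that measure, none passed 2-fold. Single transcripts did: RBCS1A transcript AT1G67090.2 had 2444, 5683 and 5240 CPM in the order +Fe, -Fe and Fe resupply. LHCA1 transcript AT3G54890.4 had 100, 297 and 100 CPM, and RCA transcript AT2G39730.3 had a log2 ratio of 1.11 for -Fe over Fe resupply. The 5 root markers summed to 1.71 CPM under +Fe, 7.07 CPM under -Fe and 1.13 CPM after Fe resupply, with CASP1 and TIP2;3 listed at 0. IRT1 and FRO2, which are themselves iron deficiency genes of the root surface, made up most of this sum in -Fe, at 3.88 and 2.72 CPM. The part of root tissue in the results was not tested. Genes that overlap members had their own levels, and the counting's use of strand is not stated. The antisense gene AT5G01595 over FER1 was at 0.946, 0.463 and 0 CPM, while AT2G40290, which overlaps FER4, was at 51.4, 55.0 and 46.4 CPM. Of the members listed at 0, FER2 is overlapped by AT3G11040, at 4.52, 5.12 and 3.99 CPM, and VIT1 by AT2G01760, at 12.1, 10.6 and 12.9 CPM.

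The transcripts most like FER1 were sought among 12273 transcripts of at least 10 CPM by the distance between their log2 ratios of -Fe and of Fe resupply to +Fe, over 3 conditions. The nearest was AT3G44480.5 of the disease resistance gene RPP1 (distance 0.0701), followed by AT1G04080.4 of PRP39 (0.460), AT4G01800.3 of AGY1 (0.476), AT1G61100.1 of a TIR-class gene (0.621) and FER4 (0.648). The RPP1 transcript had 30.7 CPM under +Fe, 3.24 CPM under -Fe and 44.0 CPM after Fe resupply, but summed over all transcripts of RPP1 the levels were 98.5, 91.7 and 98.4 CPM. PRP39 likewise summed to 94.7, 99.6 and 91.5 CPM. The sums were 216, 158 and 210 CPM for AGY1 and 120, 106 and 160 CPM for AT1G61100, also short of 2-fold. FER4 was the only other ferritin among the 5, and 96 transcripts were nearer to FER1 than FER3 was, at a distance of 1.58.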

How the data were processed

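Libraries were made with a NEBNext Ultra II kit and, by the authors' account, Novogene generated and sequenced them as paired ends. As their methods state, the authors trimmed reads with Trimmomatic 0.36.5, mapped them to TAIR10 with HISAT2 2.1.0, quantified transcripts with StringTie 1.3.3.2 and the TAIR10 annotation, and ran edgeR 3.20.7.2. The deposited tables, 1 per pair of conditions, hold the authors' average log2 CPM and their own fold changes, F statistics, p-values and FDR. Only the average was used, and 0 columns held values per sample. The values given to edgeR by the authors are not stated, so the CPM may not be of read counts. If the lowest value of a table is a prior count of 2, the mean effective library was 1124865 to 1142464. Each table showed 12 distinct levels of transcripts near that lowest value, where the labels give 3 samples per condition.

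The lowest value was subtracted on the linear scale, the 3 averages were solved for the 3 condition means, and means below 0 (6856 transcripts, 194 of them below -0.1 CPM) were set to 0. For transcripts present in 1 condition only, the tables holding it differed by at most 3.40%. The calculation was tested on simulated data. Changes were placed only in -Fe and only in transcripts above a level that VTL1 and VTL5 do not reach on average. Recovery of changes at the levels of VTL1 and VTL5 was therefore not tested. Python 3.11.15, numpy 2.4.6, pandas 2.3.3, Biopython 1.88 and matplotlib 3.10.9 were used. Gene models and sequences came from RefSeq TAIR10.1, which matched all 10 loci by locus identifier. The tables hold no coordinates.

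The members and lists were chosen with earlier results of these data known. All 10 loci were accounted for. Of the other lists, genes past 2-fold and the regulators were named, together with the 5 transcripts nearest to FER1. Alternatives covered scaling, the lowest value, the added CPM, the minimum level, the threshold and summing per gene.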

Additional observations from a re-analysis of the deposited data

How the results depend on the processing

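Members lower by at least 2-fold in -Fe than in +Fe numbered 5 as reported, 3 with 5 CPM added, 3 with a minimum level of 10 CPM and 2 at a threshold of 4-fold. Those lower in -Fe than in Fe resupply numbered 6 as reported, 3 with 5 CPM added, 3 with the minimum of 10 CPM and 3 at 4-fold. Members higher in Fe resupply than in +Fe numbered 0 as reported and 1 at 1.5-fold. With the lowest value of each table left in, both counts were 4, since VTL2 (-0.87 and -0.91 on the log2 scale) and VTL5 fell short of 2-fold. A higher minimum tests fewer genes by construction, and with 5 CPM added VTL5 is too low to reach 2-fold. The other 53 of 60 counts stayed within 1.5 times. Most of these were counts of 0 that stayed at 0, and the change from 6 to 4 was within this limit, so the figure says little about the counts of 5 and 6. Of 90 log2 ratios 0 reversed and 10 moved by 0.5 or more, all of VTL1, FER4 or VTL5 in the comparisons with -Fe. For -Fe over +Fe, VTL1 went from -1.54 to -1.02 with the lowest value left in, -2.10 with 0.1 CPM added and -0.73 with 5 CPM added, and FER4 from -2.40 to -1.56 with 5 CPM added. Rescaling tables to a common sum moved the members' levels by -0.111 to 0.231%, and matching them on transcripts of 1 condition by -9.65 to 1.47%. Leaving the lowest value in, which adds a constant to every level, moved the low -Fe levels most, from 1.14 to 2.93 CPM for VTL1, 1.35 to 3.15 CPM for VTL5 and 2.31 to 4.10 CPM for FER4. No paired analysis was possible because the tables hold no values per sample, and leaving out replicates could not be run for the same reason. Depth per sample is unknown.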

Other observations

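With levels summed over all transcripts of a gene, an alternative chosen after seeing the data, the nearest to FER1 among 11235 genes of at least 10 CPM was FER4 (distance 0.648). ENH1 (AT5G17170), a rubredoxin of the chloroplast, followed at 0.887, with 80.1 CPM under +Fe, 16.5 CPM under -Fe and 84.1 CPM after Fe resupply. HEMA1 (AT1G58290), the glutamyl-tRNA reductase that opens tetrapyrrole synthesis, stood at 0.906, with 378, 87.2 and 449 CPM. The next was AT3G43670, a copper amine oxidase gene, at 0.912, with 21.2, 1.57 and 16.4 CPM. These genes were named after their values were seen, and no test was run on them.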
